A study of Homo sapiens with 2 samples.

Results

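Transcription of the genes that handle unfolded protein and amino acid shortage was measured in BJ cells, an established line of human skin fibroblasts. The set holds 51 genes, namely folding factors of the endoplasmic reticulum (ER), genes of ER-associated degradation, and genes of the integrated stress response. They are the genes of a list of symbols that have a value among the 12353 genes of the table, so that all 51 are measured by the way they were chosen. Beyond that need for a value, the level of a gene was no part of the rule. Only genes above some minimum have a value, however, and the members were chosen with earlier results of these data known. The assay was global run-on sequencing (GRO-seq), in which engaged RNA polymerases extend their transcripts with a brominated nucleotide in isolated nuclei, so that a value reports polymerase activity over a gene and not the amount of mature mRNA. The cells carried no genetic change named in the labels, received no treatment and grew in medium with 10% serum. The 2 libraries, called a and b here, are biological replicates per the labels and form 1 group. No condition is compared and no p-value was computed, since the smallest that an exact sign-flip test allows with 2 replicates is p = 0.5. Values are FPKM, read counts divided by gene length and library size by the authors. Levels of different genes are set side by side on that scale, as far as the lengths used are right. Each gene has 1 value per library, so reads gathered near the start and reads spread along the gene cannot be told apart. How far this bears on short and long genes was not tested. A mean is given with its SD over the 2 libraries (n = 2 throughout), and the read depth behind the values is unknown. Of 9 fibroblast markers all had a value and 8 lay above the median gene, with the type I collagen gene COL1A1 highest at 683 in library a and 615 in b. DCN lay below the median gene, at 6.99 in library a and 7.69 in b. Of 10 keratinocyte, epithelial, endothelial, leukocyte and melanocyte markers, only CDH1 (1.48 in library a, 1.5 in b) and MLANA (4.0 in library a, 5.06 in library b) had a value. In such bulk samples, fewer transcribing cells and less transcription per cell cannot be told apart.

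The ER folds secreted and membrane proteins, and fibroblasts, which secrete collagen, use it heavily. Protein that fails to fold activates the unfolded protein response through the membrane sensors IRE1 (gene ERN1), PERK (gene EIF2AK3) and ATF6, and these raise the transcription of chaperones, oxidases and degradation factors. PERK shares its substrate, the translation factor eIF2, with kinases that sense amino acid shortage or lack of heme. Their common output, the integrated stress response, lowers general translation while favouring that of ATF4, a transcription factor that activates amino acid synthesis, transport and feedback genes.

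The 51 genes lay above the typical gene on the whole but spread very widely. Their median was 15.2 FPKM, which was 1.30 times the median of all genes, 11.7 FPKM. By library the median of the members was 15.3 in a and 15.05 in b. In all, 34 of the 51 lay above the median gene, against 50% of all genes. The upper quartile of all genes (22.2 FPKM) was passed by 19 members, against 25% of all genes, and the 90th percentile (40.3 FPKM, a limit chosen after the values were seen) by 13, against 10%. Only 3 members, ATF6, MBTPS2 and ERO1B, lay below the lower quartile of 6.295 FPKM.

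The highest member was the chaperone gene CALR, at 399 FPKM in library a and 326 in b. The lowest was the oxidase gene ERO1B, at 1.27 in library a and 1.57 in b. The means of these genes differed 255-fold. The 5 highest members, CALR, MANF, ATF4, DDIT3 and DDIT4, held 53.1% of the summed FPKM of the members in library a and 53.2% in b. The same 10 genes were the highest in both libraries. Further down the order was less certain, because in 25 of the 50 pairs of neighbours in the order by mean FPKM the libraries did not put both genes in the same order.

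**Figure D1:**
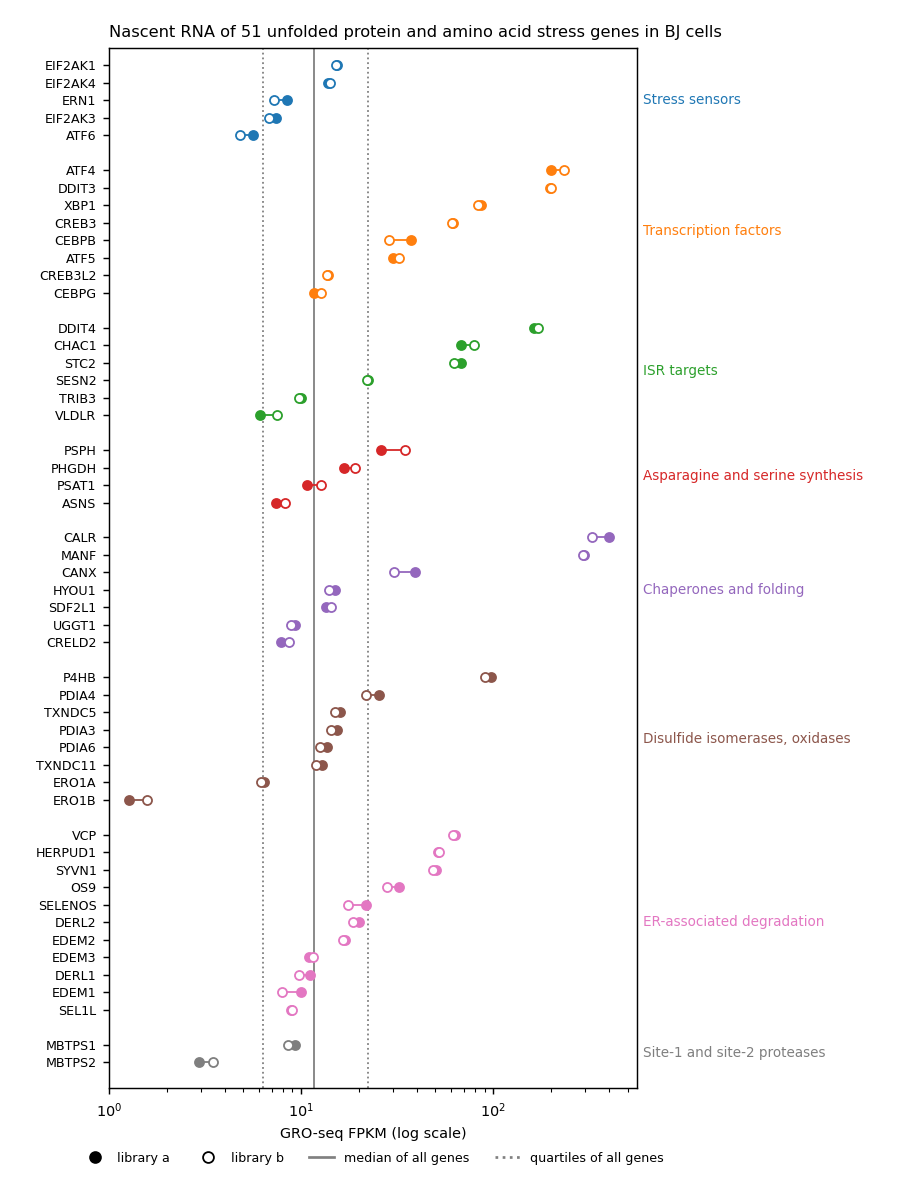
FPKM (log axis) of each of the 51 genes in library a (filled) and library b (open), grouped by role, with the median (solid line) and quartiles (dotted lines) of all 12353 genes. All 8 transcription factor genes lie above the median gene in their mean, whereas none of the 5 sensor genes reaches the upper quartile.

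**Figure D2:**
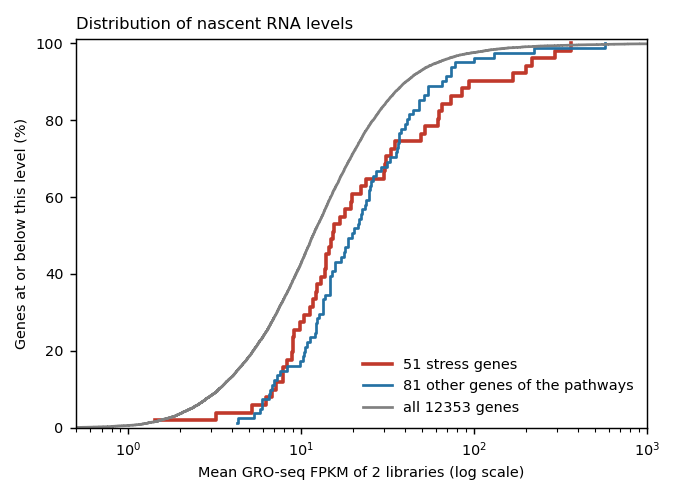
Share of genes (%) at or below each mean FPKM (log axis) for the 51 stress genes, the 81 other measured genes of the same pathways and all 12353 genes. The curve of the stress genes runs to the right of that of all genes for most of its length, with 13 members past the 90th percentile of all genes.

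Some promoters of these genes held short elements through which the stress factors are known to act. The gene list used no sequence, but many of its members are known as targets of the response, so the counts describe the promoters and support nothing further. RefSeq promoter windows (GRCh38.p14, 250 bases before to 50 bases after the start) were found for 47 of the 51 genes, with several starts for some. Each window was searched on both strands for the ER stress response element ERSE (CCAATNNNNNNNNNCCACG, known to be bound by ATF6 with the CCAAT factor NF-Y), for ERSE-II (ATTGGNCCACG), for the unfolded protein response element UPRE (TGACGTGG, known to be bound by XBP1 and ATF6) and for the C/EBP-ATF response element CARE (TGATGNAA, known to be bound by ATF4 with a C/EBP partner). ERSE, ERSE-II and the CCAAT box share letters, so their matches overlap by construction. A match is a description of the letters and was not tested as a binding site.

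ERSE was found in 6 of the 47 genes (12.8%), against 0.0916% of the 27305 genes with a window. Only 25 genes in all held it, 6 of them among the members. ERSE-II was found in 3 of 47, against 0.0696% of all genes, and UPRE in 4 of 47, against 0.927%. CARE was found in 5 of 47, against 4.46%. At least 1 of these 4 elements was found in 16 of 47 genes (34.0%), against 5.49% of all genes. The CCAAT box alone was found in 32 of 47 (68.1%), against 39.7%. Among the 9936 genes with both a window and an FPKM value the shares were 0.151% for ERSE, 0.141% for ERSE-II, 1.21% for UPRE, 2.83% for CARE and 43.4% for the CCAAT box.

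The ERSE matches are given on the strand of the gene with 10 flanking bases where the window allows, capitals marking the element with its spacer. In PDIA6, XBP1 and CANX the element reads in the direction of the gene. In CALR, CRELD2 and ERO1B it reads in the opposite direction and so appears as its reverse complement.
CALR (chr19:12938374-12938412, + strand, positions -225 to -207): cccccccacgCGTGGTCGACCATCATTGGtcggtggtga
CANX (chr5:179698768-179698806, + strand, positions -189 to -171 of 1 of its starts): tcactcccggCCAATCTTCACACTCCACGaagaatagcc
CRELD2 (chr22:49918544-49918582, + strand, positions -80 to -62): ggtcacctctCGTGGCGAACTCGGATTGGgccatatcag
ERO1B (chr1:236282173-236282208, - strand, positions -243 to -225): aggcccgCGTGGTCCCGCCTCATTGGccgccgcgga
PDIA6 (chr2:10812843-10812881, - strand, positions -86 to -68): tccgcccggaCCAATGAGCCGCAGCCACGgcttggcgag
XBP1 (chr22:28800593-28800631, - strand, positions -52 to -34): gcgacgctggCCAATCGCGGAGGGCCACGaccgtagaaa

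The ERSE-II matches, in capitals, stood in HERPUD1, HYOU1 and SDF2L1, and HYOU1 held 2 of them. The upstream copy in HYOU1 shares 5 bases with a UPRE match.
HERPUD1 (chr16:56932015-56932045, + strand, positions -117 to -107): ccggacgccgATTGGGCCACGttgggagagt
HYOU1 (chr11:119057370-119057400, - strand, positions -185 to -175): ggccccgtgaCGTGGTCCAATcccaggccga
HYOU1 (chr11:119057264-119057294, - strand, positions -79 to -69): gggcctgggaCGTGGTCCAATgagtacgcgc
SDF2L1 (chr22:21642104-21642134, + strand, positions -188 to -178): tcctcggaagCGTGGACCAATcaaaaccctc

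The UPRE matches before the start stood in HYOU1, TXNDC5 and VCP, and that of TXNDC11 lay after the start. The CARE matches before the start, shown here in capitals, stood in ASNS, CEBPG, CHAC1 and HERPUD1, and that of CREB3L2 lay after it. ASNS is an amino acid synthesis gene, CEBPG a transcription factor gene, CHAC1 a target of the integrated stress response and HERPUD1 a gene of ER-associated degradation. That of HERPUD1 and that of CHAC1 read in the direction opposite to the gene.
ASNS (chr7:97872459-97872486, - strand, positions -68 to -61): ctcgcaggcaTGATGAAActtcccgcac
CEBPG (chr19:33374061-33374088, + strand, positions -42 to -35): gcgcggcgtcTGATGCAAcctgccggca
CHAC1 (chr15:40953252-40953279, + strand, positions -209 to -202): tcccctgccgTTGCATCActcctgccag
HERPUD1 (chr16:56931956-56931983, + strand, positions -176 to -169): acgcggcgggTTGCATCAgcccgtgccc

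HERPUD1 was the only member with both CARE and an ERSE-type element, so the 250 bases before its start are given, with every match to the 5 motifs in capitals.
HERPUD1 (chr16:56931892-56932141, + strand): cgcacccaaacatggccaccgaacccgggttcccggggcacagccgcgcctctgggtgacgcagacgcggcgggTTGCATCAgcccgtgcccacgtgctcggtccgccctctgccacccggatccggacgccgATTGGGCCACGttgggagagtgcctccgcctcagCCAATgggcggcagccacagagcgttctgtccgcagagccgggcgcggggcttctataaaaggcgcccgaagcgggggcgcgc

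The medians of members with and without an element differed in direction from element to element. The 6 genes with ERSE included both the highest member, CALR, and the lowest, ERO1B. Their median was 23.9 FPKM, against 15.5 FPKM for the 41 without, and their range of 1.42 to 363 FPKM enclosed that of the others, 3.21 to 294 FPKM. The 5 genes with CARE had a median of 13.7 FPKM (range 7.82 to 73.8), against 16.1 FPKM for the 42 without it. The 3 genes with ERSE-II had a median of 14.4 FPKM (range 13.85 to 51.8), against 16.1 FPKM for the 44 without, and the 4 with UPRE 15.0 FPKM (range 12.4 to 62.4), against 16.7 FPKM for the 43 without. Over the 16 genes with any of these 4 elements the median was 14.1 FPKM, against 17.9 FPKM for the 31 without. The 32 genes with a CCAAT box had a median of 19.4 FPKM, against 9.84 FPKM for the 15 without, and the ranges overlapped from 3.21 to 217 FPKM. These are descriptions of genes within 2 libraries and were not tested.

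**Figure D3:**
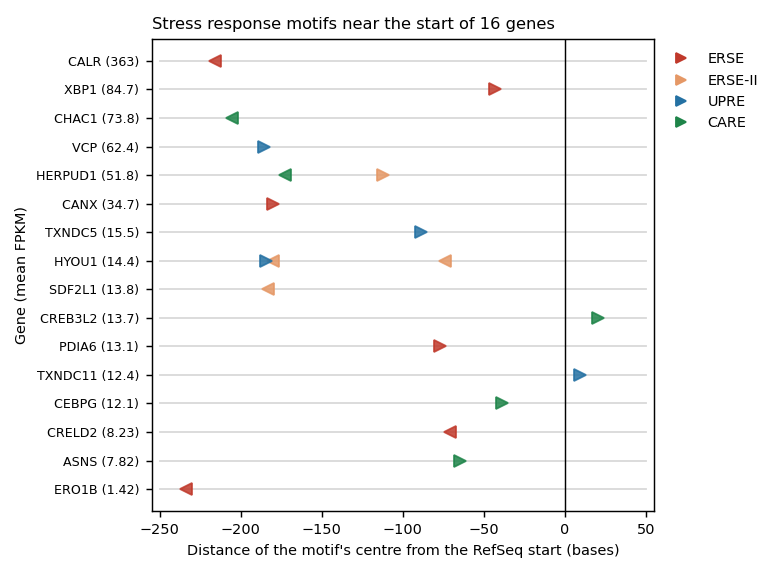
Distance in bases of each ERSE, ERSE-II, UPRE and CARE match from the RefSeq start for the 16 members that hold any, in order of mean FPKM (given after each symbol). Arrowheads to the right mark matches on the strand of the gene and to the left on the opposite strand, and CREB3L2 and TXNDC11 are the 2 genes whose match lies after the start.

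Among the sensors of the set, the cytosolic kinase genes stood above those of the ER membrane. EIF2AK1, which encodes the heme-regulated kinase HRI, had 15.3 FPKM in library a and 15.1 in b. EIF2AK4, which encodes GCN2, the kinase that senses uncharged tRNA, had 13.8 in library a and 14.15 in b. Both lay above the median gene in each library, and EIF2AK4 was slightly lower in both.

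The membrane sensors of the set, ERN1, EIF2AK3 and ATF6, all lay below the median gene. ERN1, the kinase and nuclease that splices XBP1 mRNA, had 8.42 FPKM in library a and 7.24 in b. EIF2AK3 had 7.43 in library a and 6.78 in b. ATF6, a membrane-bound transcription factor released by cleavage, had 5.63 in library a and 4.81 in b, and 19.7% of all genes had a lower mean. The proteases that release ATF6 in the Golgi were low too, with MBTPS1 (site-1 protease) at 9.24 in library a and 8.55 in b, and MBTPS2 (site-2 protease) at 2.94 in library a and 3.47 in b. The median of the 5 sensors was 7.83 FPKM, 0.669 times the median gene. Of the relatives outside the set, those of ATF6 and ERN1 were not as low. ATF6B had 18.6 FPKM in library a and 20.5 in b, and ERN2 13.8 in library a and 13.55 in b. Both lay above the median gene. EIF2AK2, a relative of EIF2AK3, lay below it, at 11.15 in library a and 9.48 in b. Whether these relatives overlap another gene whose reads they could hold was not examined.

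The transcription factors that act downstream stood much higher, with a median of 47.1 FPKM over 8 genes, 4.03 times the median gene. ATF4 had 200 FPKM in library a and 235 in b, 18.6 times the median gene in the mean. DDIT3, which encodes CHOP, a factor linked to cell death under lasting stress, had 196.5 in library a and 201 in b. The 2 genes could not be put in order, since their ratio of 1.09 was within the spread between libraries. XBP1, whose mRNA is the substrate of IRE1, had 86.1 in library a and 83.3 in b. CREB3, a membrane-bound factor cleaved by the same proteases as ATF6, had 61.6 in library a and 61.3 in b.

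The remaining factors of the group were lower. CEBPB, a C/EBP factor that partners ATF4, had 37.2 FPKM in library a and 28.5 in b, with library a higher. ATF5, a factor under the same kind of translational control as ATF4, had 30.0 in library a and 32.1 in b. CREB3L2, a relative of CREB3, had 13.7 in library a and 13.6 in b, and CEBPG, another C/EBP partner of ATF4, 11.7 in library a and 12.6 in b. Only CEBPG lay below the median gene in a library, namely in library a. For 4 of the 8 genes library a was higher and for 4 library b.

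The targets of the integrated stress response were split into a high and a low part. DDIT4, an inhibitor of the growth kinase mTORC1, had 163 FPKM in library a and 172 in b. CHAC1, an enzyme that degrades glutathione and a gene with a CARE match, had 67.9 in library a and 79.7 in b. STC2, a secreted glycoprotein gene, had 67.9 in library a and 62.6 in b. These 3 genes lay above the 90th percentile of all genes in both libraries.

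The other 3 targets were at or below the upper quartile. SESN2, a leucine sensor that restrains mTORC1, had 22.2 FPKM in library a and 21.9 in b. TRIB3, a pseudokinase that feeds back on ATF4, had 9.99 in library a and 9.69 in b, and the lipoprotein receptor gene VLDLR had 6.12 in library a and 7.51 in b. TRIB3 and VLDLR, both known to respond to ATF4 signalling, lay below the median gene in each library. For ATF4 itself 99.1% of genes had a lower mean. The share was 98.8% for DDIT4, 96.3% for CHAC1 and 95.5% for STC2, so the targets did not share 1 level.

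The amino acid synthesis enzymes lay on both sides of the median gene, with a median of 14.8 FPKM. In the mean, PSPH and PHGDH lay above the median gene, PSPH also above the upper quartile, and PSAT1 and ASNS below the median gene. PSPH, the last enzyme of serine synthesis, had 25.95 FPKM in library a and 34.8 in b. PHGDH, which makes the opening step of that route, had 16.6 in library a and 19.2 in b, and PSAT1, the step between them, had 10.7 in library a and 12.6 in b. ASNS, the asparagine synthetase gene with the CARE match shown above, had 7.43 in library a and 8.21 in b. All 4 were higher in library b, whereas 46.4% of all genes were. Their median log2 ratio of library a over library b was -0.22, beside 0.02 for all genes.

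Among the folding genes 2 stood far above the rest. CALR, the soluble lectin chaperone calreticulin, lay 31.0 times above the median gene at 363 ± 51.3 FPKM. MANF, a small secreted protein of ER stress, had 295 FPKM in library a and 293 in b. CANX, the membrane-bound lectin chaperone calnexin, followed at 39.1 in library a and 30.3 in b, also above the upper quartile.

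The remaining folding genes were nearer to the median gene. HYOU1, a nucleotide exchange factor for ER chaperones, had 14.9 FPKM in library a and 13.95 in b, and SDF2L1, a cofactor of ER chaperones, had 13.5 in library a and 14.2 in b. UGGT1, which marks misfolded glycoproteins for another round of folding, had 9.28 in library a and 8.83 in b. CRELD2, a stress-induced ER protein, had 7.85 in library a and 8.62 in b. So the genes that hold ERSE or ERSE-II in this group ran from CALR, the highest, to CRELD2, the lowest.

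P4HB was the one oxidative folding gene at a very high level. It encodes protein disulfide isomerase, which is also a subunit of the collagen prolyl 4-hydroxylase, and had 97.7 FPKM in library a and 90.1 in b. PDIA4, another isomerase, had 25.5 in library a and 21.7 in b. The isomerase genes TXNDC5, PDIA3, PDIA6 and TXNDC11 lay close together, with means between 12.4 and 15.5 FPKM. PDIA3, which works with the lectin chaperones CALR and CANX, had 15.3 in library a and 14.3 in b. The oxidase genes, which pass oxidizing power to the isomerases, were the lowest of the group, with ERO1A at 6.41 in library a and 6.18 in b, and ERO1B, known for its role in secretory cells of the pancreas, at 1.27 in library a and 1.57 in b. Of the 8 genes, 7 were higher in library a, whereas 53.3% of all genes were.

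Genes of ER-associated degradation, which returns failed proteins to the cytosol for destruction, had a median of 19.3 FPKM over 11 genes, 1.65 times the median gene. Their levels spanned 6.996-fold, the narrowest range of the groups with more than 5 genes. VCP, the ATPase that pulls substrates from the membrane, had 63.1 FPKM in library a and 61.7 in b. HERPUD1, a scaffold of the ligase complex, had 51.45 in library a and 52.1 in b. SYVN1, the ubiquitin ligase HRD1, had 50.25 in library a and 48.8 in b. These 3 genes lay above the 90th percentile of all genes.

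The lectin and channel genes of this route were intermediate. OS9, which recognizes trimmed glycans, had 32.2 FPKM in library a and 28.1 in b, and SELENOS, a selenoprotein that recruits VCP, had 21.7 in library a and 17.5 in b. The channel genes DERL2 and DERL1 had means of 19.3 ± 0.983 and 10.4 ± 0.933 FPKM. The mannosidase-like genes EDEM2, EDEM3 and EDEM1, which mark glycoproteins for degradation, had means of 16.7 ± 0.332, 11.2 ± 0.417 and 8.95 ± 1.41 FPKM. SEL1L, the adaptor of SYVN1, was lowest at 8.85 in library a and 8.99 in b. Thus EDEM1, EDEM3, DERL1 and SEL1L lay below the median gene in the mean, and the other 7 above it.

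Related genes were compared as ratios within each library, on the log2(FPKM + 0.1) scale. A ratio was taken as larger than the spread where both libraries had the same sign and the mean exceeded 2 SD. Of 22 pairs this held for 21, with ATF4 over DDIT3 as the exception. Random pairs were not examined, so the count sets the ratios against the replicate error alone, and 13 of the 22 were over 2-fold.

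Within the integrated stress response, DDIT3 was 20.0-fold above TRIB3 (19.5-fold in library a, 20.5-fold in library b). ATF4 was 6.95-fold above ATF5, and DDIT4 7.55-fold above SESN2. CEBPB was 2.67-fold above CEBPG, with a log2 ratio of 1.42 ± 0.352 that was the least precise of all pairs. XBP1 exceeded the gene of its processing enzyme, ERN1, 10.7-fold, and exceeded ATF6 15.99-fold. CREB3 was 4.47-fold above CREB3L2, and MBTPS1 2.73-fold above MBTPS2 (3.07-fold in library a, 2.42-fold in library b). The kinase genes differed little, with EIF2AK3 1.10-fold below ERN1 and EIF2AK4 1.09-fold below EIF2AK1.

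Members of the folding families were unequal too. CALR was 10.4-fold above CANX, P4HB 6.31-fold above PDIA3, and ERO1A 4.23-fold above ERO1B. PDIA4 was 1.795-fold above PDIA6, and TXNDC5 1.251-fold above TXNDC11. In the degradation route SEL1L was 5.50-fold below SYVN1, its partner in the ligase complex, and DERL1 was 1.85-fold below DERL2. EDEM2 was highest of its family, 1.87-fold above EDEM1 and 1.49-fold above EDEM3. In serine synthesis PHGDH was 1.54-fold above PSAT1, and PSAT1 was 2.58-fold below PSPH.

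**Figure D4:**
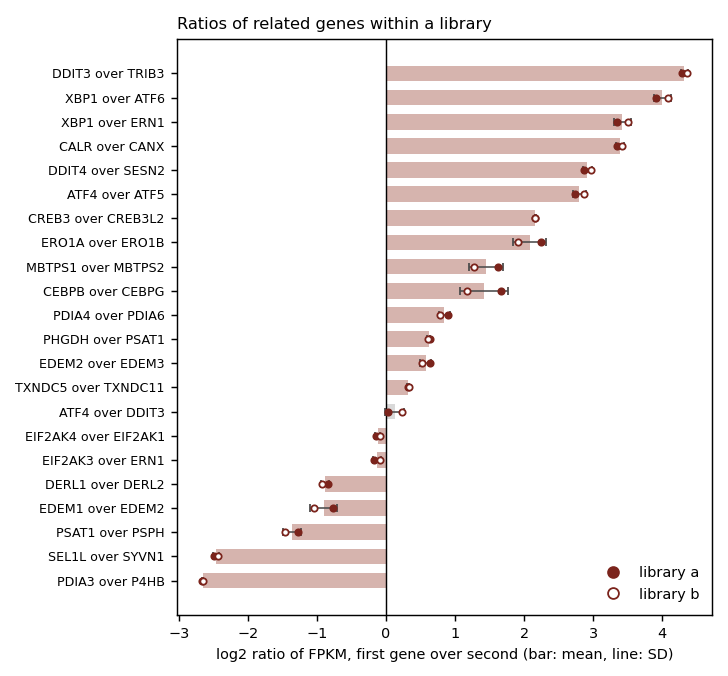
Log2 ratio of FPKM, the first-named gene over the other, for 22 pairs, as the mean (bar) with its SD over 2 libraries (line) and the value in library a (filled) and library b (open). ATF4 over DDIT3, in grey, is the pair whose ratio was within the spread, and DDIT3 over TRIB3 has the largest ratio.

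The libraries measured these genes with small differences. The median member differed 1.08-fold between libraries, beside 1.10-fold for all genes. On the log2(FPKM + 0.1) scale 3 of 51 members (5.88%) differed by more than 25% (the higher over the lower), against 14% of all genes, and none by over 1.5-fold, against 2.17% of all genes. The 3 were CEBPB and CANX, both higher in library a, and PSPH, higher in library b. EDEM1 (9.95 in library a, 7.95 in library b) lay just inside the limit of 25% on this scale. After quantile normalization 6 members passed the limit of 25%, so the count depends on the processing. All told 32 members were higher in library a and 19 in b, whereas 53.3% of all genes were higher in library a and 46.4% in b.

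**Figure D5:**
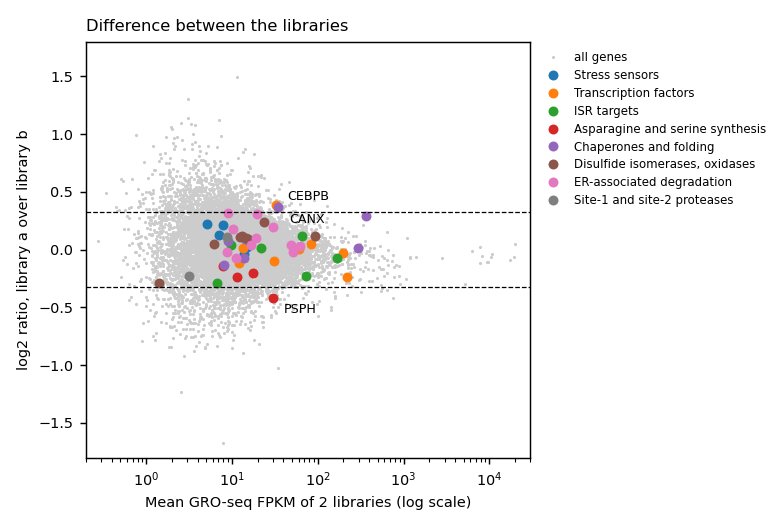
Log2 ratio of library a over library b against mean FPKM (log axis) for all 12353 genes (grey) and the 51 members (coloured by role), with dashed lines where one library exceeds the other by 25%. CEBPB and CANX lie above the upper line and PSPH below the lower one, while the other 48 members lie between the lines.

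Some values may hold reads of another gene, because the use of strand and the treatment of reads with several matches are not stated in the labels or the file. In RefSeq, 11 members overlap a gene with a value of its own. DDIT3 overlaps MARS1, a tRNA synthetase gene with 77.6 FPKM in library a and 69.5 in b. CREB3 overlaps GBA2 (44.5 in library a, 45.2 in library b), and SYVN1 overlaps MRPL49 (29.6 in library a, 33.8 in library b). In these 3 cases the member had the higher value. In the mean, 7 of the 11 members lay above every measured gene they overlap, and 4 lay below at least 1 of them. DERL2 lay below MIS12 (43.3 in library a, 41.1 in b) and PDIA3 below ELL3 (28.8 in library a, 27.7 in b). EIF2AK1 lay below AIMP2 (25.04 in library a, 24.2 in b) and ANKRD61 (20.1 in library a, 16.25 in b). TXNDC11 and SNN (12.84 in library a, 12.6 in b) were nearly level. Pseudogenes named after the gene are annotated for 7 members, with 5 for ASNS, 4 each for ATF4 and PSAT1, 2 for PDIA3 and 1 each for EIF2AK1, PSPH and XBP1. The part of overlaps and copies in these levels was not tested.

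The other genes of the same pathways lay in a similar range. Of 84 listed genes, 81 had a value, with a median of 19.5 FPKM, 1.67 times the median gene, and 62 of them lay above the median gene, against 50% of all genes. The 3 with no value were ATF3, CREB3L3 and MARCHF6.

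Among the regulators of eIF2 and related factors, 15 of 17 were measured, with a median of 20.25 FPKM. PPP1R15A, which encodes the stress-induced subunit of the phosphatase that reverses eIF2 phosphorylation, had 213 FPKM in library a and 229 in b, close to ATF4 and DDIT3. CREB3L4, a relative of CREB3, followed at 64.965 ± 2.27 and the eIF2B subunit gene EIF2B4 at 48.2 ± 4.88, and EIF2AK2, the kinase of double-stranded RNA, was lowest at 10.3 ± 1.18.

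The amino acid list, with all 21 genes measured, had a median of 24.6 FPKM. It was led by transporter genes, namely SLC38A2 (556 in library a, 579 in library b), SLC3A2 (129 in library a, 132 in library b) and SLC1A5 (71.0 in library a, 76.4 in library b), and CTH, an enzyme of cysteine synthesis, was lowest at 5.79 ± 0.849. So SLC38A2 stood above each of the 51 members in both libraries.

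All 20 other folding genes were measured, with a median of 26.0 FPKM, HSPA5 (the chaperone BiP, 96.1 in library a, 105 in library b), FKBP2 (77.6 ± 0.332) and GANAB (54.0 ± 2.31) at the top and the cochaperone gene DNAJC10 lowest at 5.35 ± 0.382. The 10 other redox genes had a median of 11.7 FPKM, from ERP29 (37.5 ± 2.0), TXNDC12 (37.0 ± 1.10) and TMX2 (25.25 ± 3.73) down to TMX4 (4.26 ± 0.481). Of the other degradation genes 15 of 16 were measured, with a median of 14.6 FPKM, from AUP1 (40.7 ± 3.24), NPLOC4 (26.1 ± 1.51) and UFD1 (23.8 ± 0.827) down to UBE2J1 (5.97 ± 0.113).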

How the data were processed

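GRO-seq libraries of untreated BJ cells were measured in 2 samples that form 1 group. The deposited table holds FPKM values made by the authors, with Bowtie2, HTSeq and hg19 named in the submitters' processing notes without roles or versions. Neither the labels nor the file state the gene lengths, the read totals or the use of strand. Per the labels' protocols, nuclei ran on for 5 min at 30 °C and libraries came from a small RNA kit. Column names end in a and b and could not be tied to replicate numbers. No value is 0 (lowest 0.29 and 0.27), so only genes above some minimum are listed. Depth is unknown: among 3521 genes at FPKM 20 or more, the fullest narrow bin of ratios between libraries held 11, so no step worth 1 read could be read off. No counting interval is given.

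Identifiers were paired with symbols through an Ensembl name table (12202 of 12353). Means over the libraries, with the SDs, medians and ranks of levels, used FPKM itself without a log (Python 3.11.15, pandas 2.3.3, NumPy 2.4.6). The scale of log2(FPKM + 0.1) was used for pair ratios, for differences between libraries and for the levels compared across settings. Motifs were searched in RefSeq promoter windows on GRCh38.p14, a build other than that of the values, so only names and sequences were joined. Functions were tested on simulated data. The members, role groups, pairs and lists were chosen with earlier results of these data known. Named genes were set by rule: every member, the 3 highest and the lowest of each other list, and the members that differ most between libraries. ATF6B and ERN2 were named besides, as relatives of ATF6 and ERN1, and so were the other measured genes with ERSE or ERSE-II.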

Additional observations from a re-analysis of the deposited data

How the results depend on the processing

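All members kept a value under every setting tried, and the median level of the members stayed above that of all genes, by 0.38 on the log2 scale as reported, by 0.36 with a pseudocount of 1 and by 0.82 with list means (0.36 to 0.38 with 1 library left out). Of the role groups, list means gave -0.40 for the sensors (-0.57 as reported), 2.05 for the factors (1.93), 1.44 for the targets of the integrated stress response (1.69), 1.51 for the folding genes (0.30) and 0.11 for the redox genes (0.25). A pseudocount of 1 gave 1.85 for the factors, 1.63 for the targets and -0.98 for the proteases (-1.11 as reported). With 1 library left out the factors ranged from 1.91 to 2.02 and the degradation genes from 0.58 to 0.76 (0.72 as reported). No group changed sign.

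The number of members differing by over 25% between libraries was 3 as reported (14% of all genes), 6 after quantile normalization and 0 at 1.5-fold (2.17% of all genes). No share of all genes is given after quantile normalization, so the 6 cannot be set against a background. Searched on the strand of the gene only, 3 members held ERSE, 1 ERSE-II and 3 CARE. No share of all genes is given for that search, so these counts cannot be set against a background. With 1 mismatch allowed, 12 held ERSE (1.89% of all genes) and 6 ERSE-II (1.46% of all genes). The difference in median log2 level between members with and without a motif is given as reported, with the range with 1 library left out in brackets. It is taken between medians of log2 levels, so it can differ from the log2 ratio of the FPKM medians given above. It was 0.45 (0.37 to 0.53) for ERSE, -0.16 (-0.15 to -0.13) for ERSE-II and -0.16 (-0.19 to -0.11) for UPRE. For CARE it was -0.24 (-0.25 to -0.21), for CCAAT 0.97 (0.96 to 1.05) and for any of the other 4 motifs -0.34 (-0.31 to -0.24). For ERSE-II and for any of the 4, the reported difference was larger in size than with either library left out. The cause of these moves was not tested. Counts above the median gene, the upper quartile and the 90th percentile (the last chosen after seeing the data) stayed within 1.5 times under each setting run, and no pair ratio changed sign in any setting run. With another pseudocount or quantile normalization, each pair ratio stayed on its side of 2 SD. A single library gives no SD, so that limit could not be applied with 1 library left out. EIF2AK3 over ERN1, among the smallest ratios, had a log2 ratio of -0.14 as reported and -0.09 without library a. No paired analysis was possible because all samples form 1 group. Unknown depth and gene lengths limit what the levels can show.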

Other observations

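ERSE is rare enough that its other carriers can be listed. Outside the 51 genes, 9 genes with an FPKM value held a perfect ERSE in a RefSeq promoter window, a search made after the values of the members were seen. They include HSPA5 (96.1 in library a, 105 in library b) and HSP90B1 (38.6 in library a, 33.0 in library b), the main chaperones of the ER. SERP1, which protects membrane proteins during stress, had 42.95 FPKM in library a and 44.5 in b. FICD, an enzyme that modifies BiP, had 23.45 in library a and 18.7 in b. ALG12, an enzyme of glycan assembly, had 6.83 in library a and 5.97 in b. The others were EIF2A (6.81 in library a, 8.66 in library b), the actin-associated gene SYNPO (21.3 in library a, 19.85 in library b), the antiviral gene TRIM5 (8.14 in library a, 8.92 in library b) and the zinc finger gene ZNF17 (10.9 in both libraries). Their median was 20.6 FPKM, and 5 of the 9 lay above the median gene, against 50% of all genes. ERSE-II was found in 11 other measured genes, with a median of 16.4 FPKM and levels from 0.730 (CAMTA1) to 49.3 (GYS1). Between these, in falling order of mean, stood ZNF143 (45.3), RAD9A, RUVBL2, NUCB1, PLS3, NAV2, SHCBP1, SETD3 and CNKSR1 (2.52). NUCB1, which encodes a calcium-binding protein of the Golgi, had 23.7 in library a and 26.6 in library b.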
